A study of Mus musculus with 5 samples.

Results

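The thrombospondins, tenascins and related matricellular genes are described here as 10 genes, namely Thbs1, Thbs2, Thbs3, Thbs4, Comp, Tnc, Tnxb, Postn, Sparc and Sparcl1. They were taken by name from the 15180 protein-coding genes of the deposited table, and all 10 were found. Fibroblasts were sorted from pancreatic tumours of KPC mice, a genetically engineered model of the disease. Mice of one group received vehicle (n = 3 libraries) and those of the other LDE225 (sonidegib, n = 2), a drug that blocks Smoothened and with it the Hedgehog pathway. In both groups gavage lasted 14 days and began when a tumour was present. The sort kept living cells with podoplanin (PDPN) and without CD45, EpCAM and E-cadherin, so that PDPN-positive cells other than fibroblasts could also pass the gate. The sources used here give no strain, age or dose, nor whether the libraries of a group are from different mice. The p-values therefore measure the spread between these libraries, which may be technical.

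Matricellular proteins are secreted into the matrix but act mainly by binding receptors, growth factors, proteases and collagen rather than by bearing load. Thrombospondins fall into trimeric forms (Thbs1, Thbs2) that carry properdin-like repeats and pentameric forms (Thbs3, Thbs4, Comp) that lack them. Tenascin-C (Tnc) marks wounds and tumour stroma, tenascin-X (Tnxb) is a component of resting connective tissue, and periostin (Postn), SPARC and the SPARC-like protein hevin (Sparcl1) bind collagen and influence its assembly. In pancreatic cancer these proteins come largely from the fibroblasts of the stroma.

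Reads recovered from the normalised values came to between 7578822 and 11194991 per vehicle library and to 13671817 and 14083280 in the LDE225 libraries, so both treated libraries were deeper. Gli1, a Hedgehog target gene read here as a check of the drug, was at 315, 463 and 264 normalised counts in vehicle 1, 2 and 3 and at 22.5 and 14.4 in LDE225 1 and 2 (limma log2 fold change -4.16 ± 0.34, SE, adjusted p = 0.0355). The direction held with any library left out, but the adjusted p was 0.102 without vehicle 1, 0.0592 without vehicle 3, 0.433 without LDE225 1 and 0.231 without LDE225 2. Ptch1, the Hedgehog receptor and another target, was at 459, 1079.6 and 526 with vehicle and at 179 and 207 with LDE225 (limma log2 fold change -1.72, adjusted p = 0.159). All 8 fibroblast markers were measured. Of these, 3 were higher in both LDE225 libraries than in every vehicle library, beside 16.6% of all genes. The summed level of all 8 was 625794 normalised counts in vehicle 1 and between 1083919.7 and 1217313 in the other libraries. Most of this sum came from collagen genes: Col3a1, Col1a1 and Col1a2 were at 222525, 200497 and 150517 in vehicle 1. The sum thus says little of the other fibroblast markers. Vehicle 1 also had the highest summed level of the 4 mesothelial markers (9375, against 3524 and 4381 in vehicle 2 and 3). This sum was 3503 and 3359 with LDE225, and 2 of the 4 markers were lower in both treated libraries than in every vehicle library. The 5 epithelial markers summed to 5007 to 5663 with vehicle and to 4611 and 1832 with LDE225. Of these 5, 3 were lower in both LDE225 libraries than in every vehicle library. Over all genes 15.2% were lower in this way. Every pair of libraries within a group differed by more than sampling noise, and each counts as 1 sample.

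Sparc alone took between 0.647% and 0.809% of the recovered reads of a library. Levels of different genes were compared as normalised counts per kilobase of exon. On that scale Sparc stood first in every library, at 20339.9 ± 3454 in the vehicle group (SD, n = 3) and 21822 ± 63.0 under LDE225 (SD, n = 2). Thbs1 was second in every library, at 4927 ± 1125 and 5649 ± 889.8, and Comp was last in every library, at 37.1 ± 38.1 and 77.7 ± 75.0. Between these ends the order was not the same in the 2 groups. With vehicle, Tnc had rank 3 (2661 ± 1361 counts per kilobase) and Tnxb rank 7 (537 ± 414). With LDE225, Tnxb had rank 3 (2818 ± 334) and Tnc rank 5 (1575 ± 388). Some neighbours in the order of means lay close with vehicle. Tnc was above Sparcl1 (1983 ± 1443) in each vehicle library, by a small margin in vehicle 2 (3796 against 3628). Thbs2 (1060.1 ± 392) was above Postn (959.7 ± 389) in vehicle 1 and 2 and below it in vehicle 3 (1043 against 1078). The annotated exon length of Tnxb belongs to another version of its gene model than the table uses, so its level per kilobase is approximate.

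**Figure D1:**
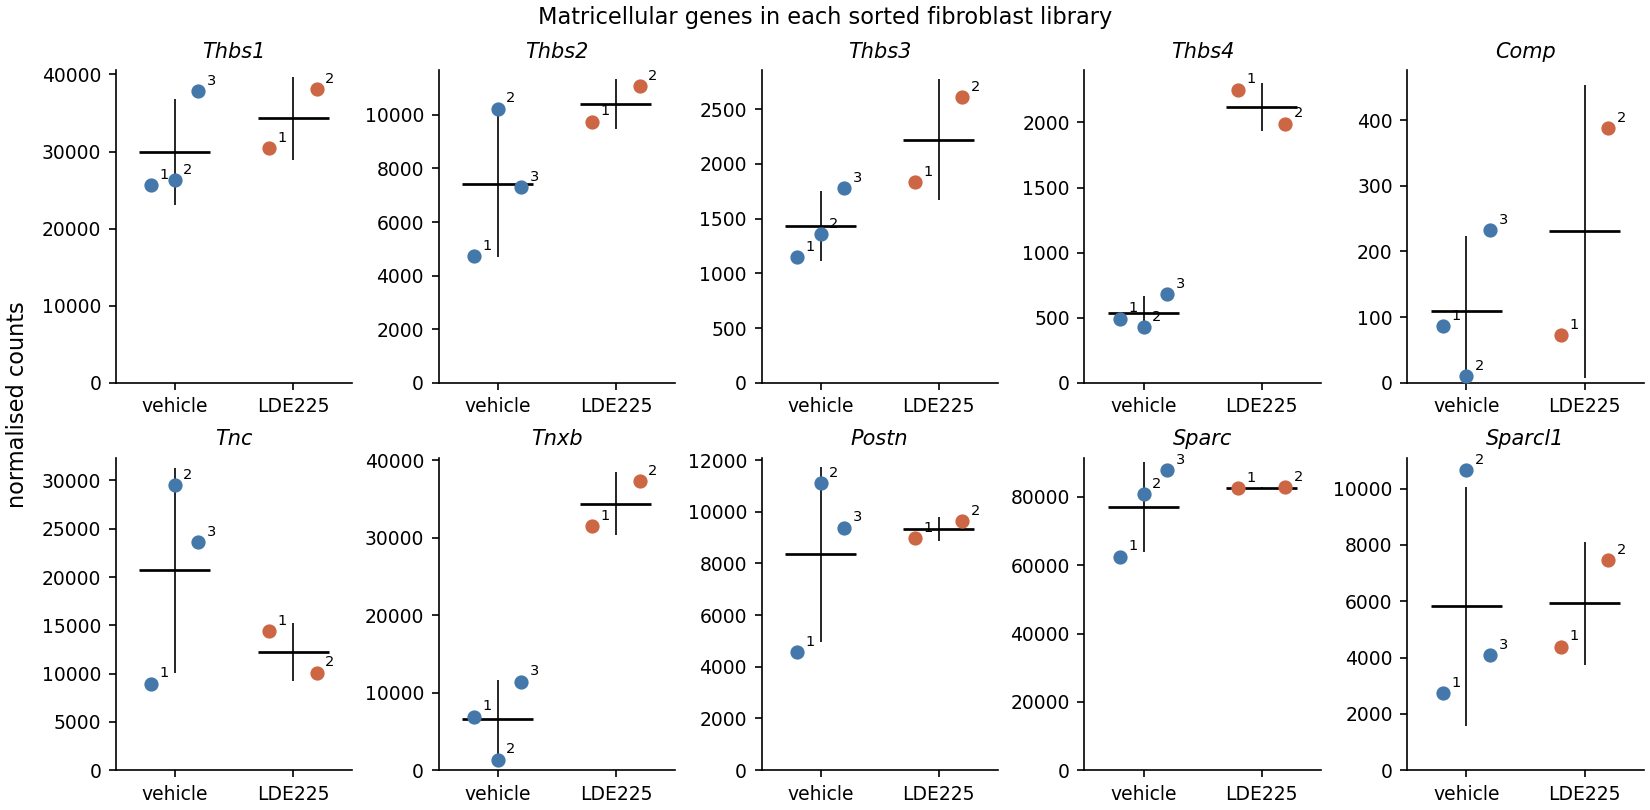
Normalised counts of the 10 genes (vertical axes, each starting at 0) in the 3 vehicle and 2 LDE225 libraries. Points are libraries labelled by replicate number, horizontal bars are group means and vertical lines are SD. Thbs4 and Tnxb lie far apart between the groups, while the points of Sparc, Postn and Sparcl1 mix.

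LDE225 was set against vehicle to ask what inhibiting Hedgehog signalling does to these genes in tumour fibroblasts. The thrombospondin Thbs4 and the tenascin Tnxb had the highest fold changes, about 4-fold and 5-fold by group means, and Thbs3 was also higher in both treated libraries. None of the 10 passed limma after adjustment over all 13183 genes tested, where 4 genes or 0.0303% passed (0.0228% higher and 0.00759% lower with LDE225). In edgeR 0 of 10 passed (0.0152% of all genes), and in DESeq2 on the same reads 1 of 10 did, Thbs4, which was higher, beside 4.23% of all genes (2.39% higher and 1.84% lower). At an unadjusted p under 0.05 in limma there were 3 of 10 (Thbs3, Thbs4 and Tnxb), all higher, beside 12.6% of all genes (6.92% higher and 5.71% lower). The same 3 were the ones whose groups did not overlap, all with LDE225 higher, as were 16.6% of all genes. No member lay below vehicle in both LDE225 libraries, as 15.2% of all genes did. The median log2 fold change was 0.40 over the 10 genes and 0.0030 over all genes tested, and 9 of the 10 were positive, as were 50.4% of all genes. Without vehicle 1 the median was 0.19 and 6 of the 10 were positive, since Postn, Sparc and Sparcl1 turned negative. Without LDE225 2 the median was 0.23 with 8 positive, and without LDE225 1 it was 0.62 with 9 positive.

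Thbs4 encodes a pentameric thrombospondin best known from tendon, muscle and the nervous system. Its values were 494, 429.7 and 680.1 normalised counts in vehicle 1, 2 and 3 and 2252 and 1991 in LDE225 1 and 2. Both treated libraries were thus far above every vehicle library, and within either group the libraries lay close together: the highest vehicle value was 1.58 times the lowest, and the higher LDE225 value 1.13 times the other. The group means were 535 ± 130.0 (SD, n = 3) and 2122 ± 184 (SD, n = 2), a 3.97-fold difference. A higher log2 fold change was found for 1.24% of all genes, and for 0.326% in the case of Tnxb described next. In limma the log2 fold change was 2.01 ± 0.22 (SE, 95% interval 1.49 to 2.53) with an adjusted p of 0.0731, just outside the threshold of 0.05. Only 8 genes, or 0.0607% of those tested, had an unadjusted p as small, Thbs4 included. DESeq2 called it (log2 fold change 1.99 ± 0.26, adjusted p = 4.49e-11), and edgeR did not (1.99, adjusted p = 0.0827). With 1 library left out its log2 fold change stayed between 1.87 and 2.20 and its limma adjusted p between 0.0534 and 0.514. Of the 3 tendon markers set, 2 were measured, both low: Scx was at 8.69 to 15.1 and Mkx at 14.0 to 37.8 normalised counts in all libraries. Of the 4 Schwann cell markers, 2 were measured, and they summed to 0, 4.83 and 3.49 normalised counts with vehicle and to 12.1 and 8.45 with LDE225. Sox10 was at 0 in every vehicle library and at 3.21 and 2.54 with LDE225. These levels are a few reads per library, and the part of such cells in the level of Thbs4 was not tested.

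Tnxb encodes tenascin-X, a large glycoprotein that helps collagen fibrils form and space themselves in skin and other connective tissue. It was at 6909.6, 1346 and 11427 normalised counts in vehicle 1, 2 and 3 and at 31517 and 37284 in LDE225 1 and 2. Here too the groups were apart, but the vehicle libraries differed among themselves, with vehicle 3 at 8.49 times vehicle 2. The means were 6561 ± 5049.6 and 34400.5 ± 4078, a 5.24-fold difference. The limma log2 fold change was 2.85 ± 0.83 (SE, 95% interval 0.88 to 4.83, adjusted p = 0.250), and DESeq2 gave 2.39 ± 0.99 (adjusted p = 0.194). Without vehicle 2 the log2 fold change was 1.95, and over all omissions of 1 library it lay between 1.95 and 3.49 with the direction kept. The fold change of Tnxb was therefore larger than that of Thbs4, with a standard error several times as wide. Exons of Tnxb overlap the pseudogene Cyp21a2-ps on the other strand, and the sources used here do not state whether counting used the strand.

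Thbs3, another pentameric thrombospondin that forms part of the skeletal matrix in mice, was at 1152, 1362 and 1778 with vehicle and at 1832 and 2611 with LDE225. The lower treated library exceeded the highest vehicle library by a small margin only. Its means were 1431 ± 319 and 2222 ± 550.4, 1.55-fold apart, with a limma log2 fold change of 0.64 ± 0.24 (SE, 95% interval 0.063 to 1.21, adjusted p = 0.352). It was 0.38 without LDE225 2 and lay between 0.38 and 0.89 with any 1 library left out. Thbs3 shares exon bases with Mtx1 on the opposite strand. The kit kept the strand of the RNA, but whether the counting used it is not stated, so reads of Mtx1 may be among those of Thbs3.

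Comp, cartilage oligomeric matrix protein, completes the pentameric group and was the least abundant of the 10 genes. It was at 86.7, 10.6 and 233 normalised counts with vehicle and at 73.1 and 388 with LDE225, so LDE225 1 lay inside the vehicle range and LDE225 2 above it. In reads these were 68, 11, 200, 91 and 459. The exact 95% Poisson interval for the 11 reads of vehicle 2, which covers counting error only, runs from 5.49 to 19.7 reads. The difference between vehicle 2 and the other libraries is thus beyond counting error. Its limma log2 fold change of 1.45 ± 1.28 (SE, 95% interval -1.60 to 4.51, adjusted p = 0.697) was 0.25 without vehicle 2 and 0.26 without LDE225 2. Of the 4 cartilage markers set, 2 were measured. Sox9, a transcription factor of chondrocytes and other lineages, was at 333, 408 and 474 with vehicle and lower in both LDE225 libraries, at 262 and 218. Acan, the cartilage proteoglycan aggrecan, was at 6.37, 233 and 89.7 with vehicle and at 64.3 and 13.5 with LDE225. Neither followed the order of the libraries for Comp, and their part in its level was not tested.

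The trimeric thrombospondins were abundant and overlapped between the groups. Thbs1, an inhibitor of blood vessel growth and an activator of latent TGF-beta, was at 25618, 26344 and 37796 normalised counts with vehicle and at 30486 and 38128 with LDE225. Vehicle 3 was as high as LDE225 2. The limma log2 fold change was 0.21 ± 0.30 (SE, 95% interval -0.51 to 0.93, adjusted p = 0.831), so a change of more than 1.91-fold upward lay outside the interval. Without vehicle 1, vehicle 2 and LDE225 2 it was 0.11, 0.13 and 0.051, and without vehicle 3 and LDE225 1 it was 0.39 and 0.37. Thbs1 is stored in platelets, and the 5 platelet markers summed to 74.4 to 120.0 normalised counts with vehicle and 68.3 and 83.7 with LDE225. Thbs2, which resembles Thbs1 in structure and limits vessel growth, was at 4739, 10228 and 7306 with vehicle and at 9742 and 11057 with LDE225. Vehicle 2 lay between the treated libraries, and the limma log2 fold change was 0.55 ± 0.33 (95% interval -0.22 to 1.33, adjusted p = 0.554). It was 0.26 without vehicle 1 and 0.82 without vehicle 2.

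The make-up of the thrombospondin family was compared as each gene's share of the summed counts per kilobase. Thbs4 held 2.83%, 2.10% and 2.61% in vehicle 1, 2 and 3 and 9.13% and 6.63% in LDE225 1 and 2. Thbs1 held 79.4%, 69.8% and 78.6% with vehicle and 66.9% and 68.7% with LDE225, so that both treated libraries were lower than every vehicle library, vehicle 2 only slightly so. Per kilobase Thbs4 was below Thbs3 in each vehicle library, for example at 207 against 369 in vehicle 3. It was above Thbs3 in both LDE225 libraries, at 685 against 380 and at 605 against 541. The log2 ratio of Thbs4 to Thbs1 within a library, which does not depend on scaling between libraries, was -5.70, -5.94 and -5.80 with vehicle and -3.76 and -4.26 with LDE225. The groups differed by 1.80, with SDs of 0.12 and 0.35. For Thbs4 to Thbs2 the difference was 1.46. Each gave p = 0.2 in an exact two-sided permutation test over the 10 arrangements, the smallest p this design allows, and 0.267 after adjustment over the 4 ratios tested.

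**Figure D2:**
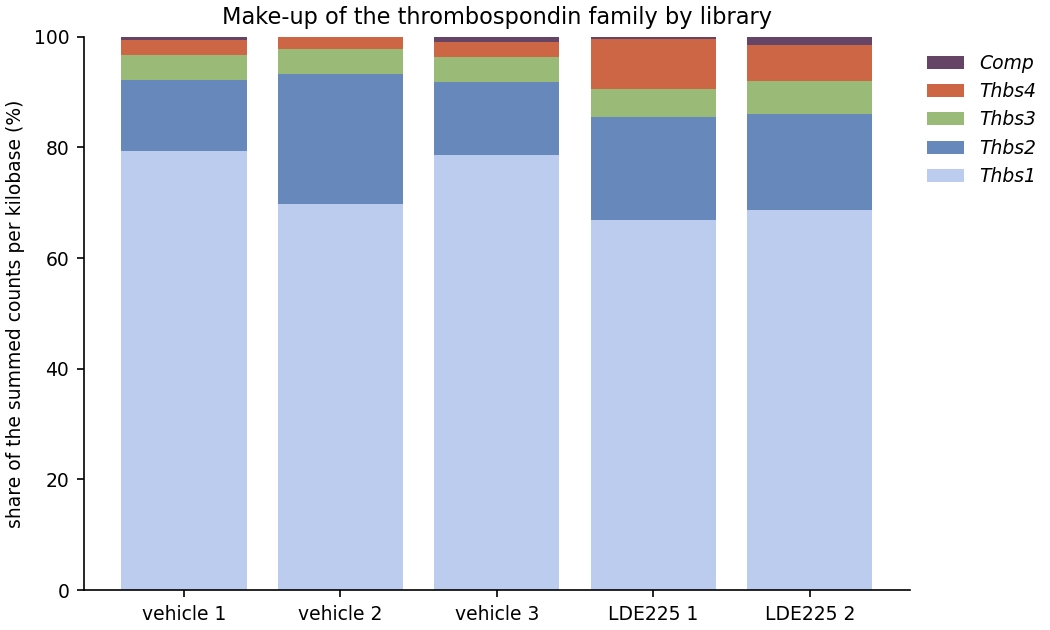
Share of each thrombospondin in the summed normalised counts per kilobase of the 5 thrombospondin genes (vertical axis, %), for each library. The Thbs4 segment covers 2.10% to 2.83% in the vehicle libraries and 6.63% to 9.13% in the LDE225 libraries, while Thbs1 remains the main part in all 5.

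The tenascins had fold changes of opposite sign, though neither passed the test. Tnc, which encodes the tenascin of wounds and tumour stroma, was the only one of the 10 genes with a negative fold change. It was at 8954, 29502 and 23592 normalised counts in vehicle 1, 2 and 3 and at 14371 and 10104 in LDE225 1 and 2. Vehicle 1 was the lowest library of all, so the groups overlapped, and the test was not passed (limma log2 fold change -0.61 ± 0.51, SE, 95% interval -1.84 to 0.62, adjusted p = 0.682). Without vehicle 1 the log2 fold change was -1.13 (adjusted p = 0.155), and without vehicle 2 it was -0.27. Within each library Tnxb was at 0.772, 0.0456 and 0.484 times Tnc with vehicle and at 2.19 and 3.69 times Tnc with LDE225, in normalised counts not scaled for length. The log2 ratio thus differed by 3.47 (SDs 2.19 and 0.53, exact two-sided permutation p = 0.2, adjusted over 4 ratios 0.267). Per kilobase, Tnxb lay below Tnc in all 3 vehicle libraries and above it in both LDE225 libraries.

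The remaining genes, whose proteins bind collagen, did not separate the groups. Sparc, an abundant collagen-binding protein of fibroblasts, was at 62482, 80853 and 87807 normalised counts with vehicle and at 82495 and 82832 with LDE225. The treated libraries lay inside the vehicle range. The limma log2 fold change was 0.12 ± 0.38 (SE, 95% interval -0.79 to 1.02, adjusted p = 0.935). Its sign turned without vehicle 1 (-0.028), with libraries scaled to the same total (-0.017) and with quantile normalisation (-0.37), so it has no settled direction.

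Postn, which encodes periostin, a partner of tenascin-C and of collagen in fibrotic stroma, was at 4566, 11104 and 9384 with vehicle and at 8986 and 9647 with LDE225. Vehicle 1 was low and the other vehicle libraries lay close to the treated ones (limma log2 fold change 0.25 ± 0.38, 95% interval -0.65 to 1.16, adjusted p = 0.836). The sign turned to -0.13 without vehicle 1. Sparcl1, the SPARC-like gene, was at 2733, 10655 and 4081 with vehicle and at 4385 and 7467 with LDE225. Vehicle 2 was the highest library, and the fold change was near zero (limma log2 fold change 0.22 ± 0.56, 95% interval -1.12 to 1.56, adjusted p = 0.914), turning to -0.20 without vehicle 1 and to -0.17 without LDE225 2. The log2 ratio of Sparcl1 to Sparc within a library differed by 0.10 (SDs 0.89 and 0.54, exact two-sided permutation p = 1.0).

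**Figure D3:**
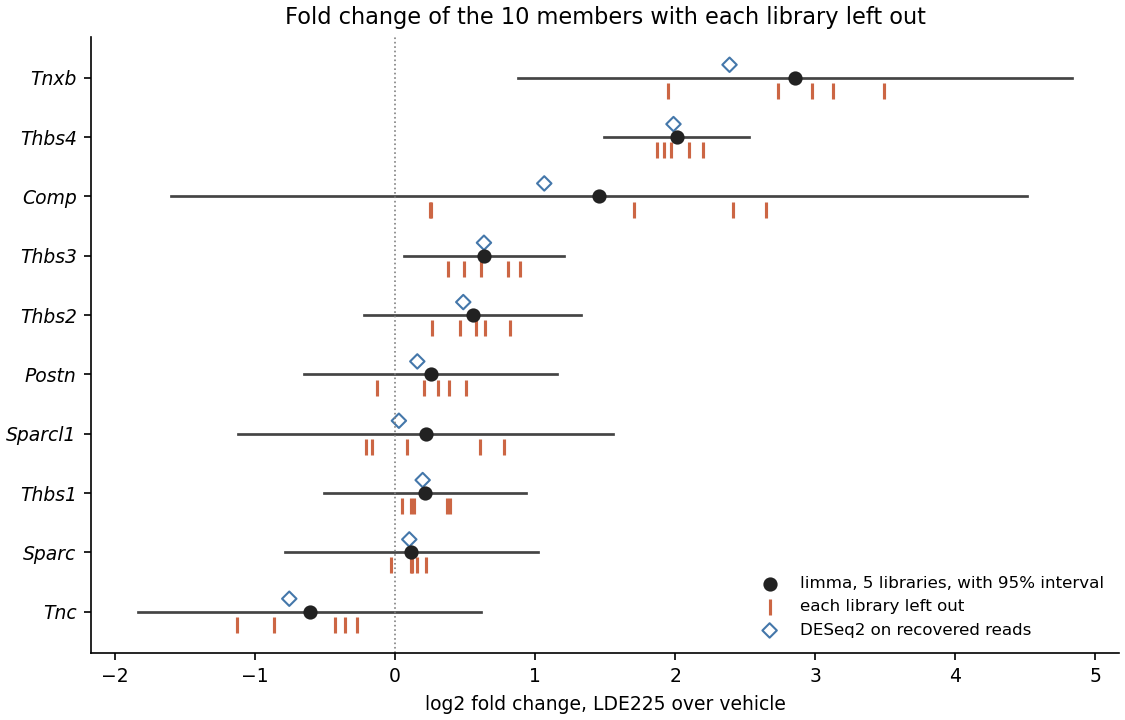
Log2 fold change of LDE225 over vehicle (horizontal axis) for the 10 genes in limma with its 95% interval (black), with each library left out in turn (orange ticks) and in DESeq2 on recovered reads (blue diamonds). The ticks of Thbs4 lie between 1.87 and 2.20, those of Comp between 0.25 and 2.65, and those of Sparc, Postn and Sparcl1 fall on both sides of 0.

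The order of the vehicle libraries was not the same for all 10 genes. Vehicle 1 was the lowest of the 5 libraries for 7 genes (Thbs1, Thbs2, Thbs3, Tnc, Postn, Sparc and Sparcl1), as it was for 25.0% of all genes tested. Vehicle 2 was the lowest for the other 3 (Thbs4, Comp and Tnxb), as for 22.8% of all genes, and the highest for Tnc, Postn and Sparcl1. Neither LDE225 library was the lowest for any of the 10, while LDE225 1 was for 17.8% and LDE225 2 for 18.8% of all genes. LDE225 2 was the highest for 5 of the 10, against 21.8% of all genes. Vehicle 1 was also the library with the lowest fibroblast marker sum, which is mostly collagen, and the highest mesothelial marker sum given above. Vehicle 2 had the highest sum of the 7 pericyte and smooth muscle markers (5394, against 1973 and 4947 in the other vehicle libraries and 1858 and 4168 with LDE225). Within that list the genes differed: Cspg4 and Notch3 were highest in vehicle 2, Notch3 at 2164 against 212 to 886 elsewhere, while Abcc9, the one of highest mean, was lowest there, at 188 against 477 to 2107. It had the lowest sum of the 8 blood endothelial markers, at 542 against 937 to 1929.8 in the others. The 5 lymphatic endothelial markers, whose cells carry PDPN, were also lowest in vehicle 2, with a sum of 279, and highest in vehicle 3, at 1596 (836 in vehicle 1 and 746 and 1008 with LDE225). The vehicle libraries thus stood in the same order for these endothelial sums as for Thbs4, Tnxb and Comp. Not every marker had it: Kdr (632, 334 and 452 in vehicle 1, 2 and 3) and Esam (315, 86.9 and 196) were highest in vehicle 1. Cdh5, Flt4, Ccl21a and Mmrn1 had the order of the sums. How many of all genes share that order was not counted. With LDE225 the blood endothelial sums were 937 and 1260, and both endothelial sums lay inside the vehicle range. Thbs4 and Tnxb lay above every vehicle library in both LDE225 libraries, and Comp only in LDE225 2. The part of these cell types in the levels of the 10 genes was not tested, and in bulk libraries fewer cells of a type and less RNA per cell cannot be told apart.

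The promoters of Thbs4, Tnxb and Tnc are shown because the first pair had the highest fold changes and Tnc the only negative one. Each runs from 250 bases before to 50 bases after the gene start, taken from RefSeq on GRCm38.p6, which held a promoter for 7 of the 10 genes (not Thbs1, Comp and Sparcl1). Capitals mark matches on either strand. The letters searched were GACCACCCA, bound by GLI factors of the Hedgehog pathway, and TGANTCA, bound by the AP-1 family. Searched as well were GGAATG for TEAD factors, and GGGCGG, the box bound by Sp factors. The last was TATAAA, the core promoter box.
Thbs4 promoter, chr13:92794769-92795068, minus strand: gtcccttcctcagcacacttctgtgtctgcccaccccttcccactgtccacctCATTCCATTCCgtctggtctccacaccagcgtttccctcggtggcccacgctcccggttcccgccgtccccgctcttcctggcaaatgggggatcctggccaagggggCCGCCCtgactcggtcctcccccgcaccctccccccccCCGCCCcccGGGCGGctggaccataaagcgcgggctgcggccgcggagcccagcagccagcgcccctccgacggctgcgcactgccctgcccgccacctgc
Tnxb promoter, chr17:34670285-34670584, plus strand: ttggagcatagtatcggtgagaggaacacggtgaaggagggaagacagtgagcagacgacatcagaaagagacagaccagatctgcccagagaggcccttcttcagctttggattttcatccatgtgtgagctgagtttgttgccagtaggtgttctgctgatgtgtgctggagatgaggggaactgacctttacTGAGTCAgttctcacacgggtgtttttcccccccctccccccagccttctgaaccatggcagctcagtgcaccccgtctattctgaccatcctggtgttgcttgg
Tnc promoter, chr4:64046966-64047265, minus strand: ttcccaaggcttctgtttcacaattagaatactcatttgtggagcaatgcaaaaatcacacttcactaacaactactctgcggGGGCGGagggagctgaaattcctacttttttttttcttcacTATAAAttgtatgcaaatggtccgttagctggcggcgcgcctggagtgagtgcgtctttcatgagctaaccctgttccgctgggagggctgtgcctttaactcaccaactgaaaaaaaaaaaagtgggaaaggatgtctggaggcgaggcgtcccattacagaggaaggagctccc
The Thbs4 promoter held 72.0% G and C, against a median of 52.7% over 32851 promoters of that length, while those of Tnxb (53.0%) and Tnc (47.3%) were near the median or below it. It contained 3 Sp boxes, of a kind present in 35.7% of all promoters, and overlapping TEAD matches, which share 1 base, at positions -197 and -192 from the gene start, of a kind present in 14.7%. Tnxb had an AP-1 match at -55, as 7.81% of promoters have somewhere in the window. The 50 bases after the listed start of Tnxb open with ATG and hold no stop codon in that frame. That start may thus be one of translation, and whether transcription begins there was not tested. Tnc had the letters TATAAA at -126, as 13.6% of all promoters have somewhere in the window, and 1 Sp box. RefSeq also lists another start of Tnc, whose window overlaps the one shown. That window held 54.0% G and C, above the median, and has the same TATAAA at -205 from its own start. The GLI letters were in none of the windows of the 7 genes and in 0.253% of all promoters. A match is a description of letters and not a site of binding.

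Coordinates are those of GRCm38 in GENCODE M21. Thbs4 (ENSMUSG00000021702.7) spans bases 92751590 to 92794818 of chromosome 13, minus strand, and Tnxb (ENSMUSG00000033327.18) bases 34670535 to 34719815 of chromosome 17, plus strand. The identifier of Tnxb is that of the deposited values, while its span comes from another version of the gene model in M21. The other tenascin, Tnc (ENSMUSG00000028364.15), occupies 63959785 to 64047015 of chromosome 4, minus strand. Thbs1 (ENSMUSG00000040152.8) spans 118111876 to 118127133 of chromosome 2, plus strand, and Thbs2 (ENSMUSG00000023885.9) 14665500 to 14694235 of chromosome 17, minus strand. Chromosome 3, plus strand, holds Thbs3 (ENSMUSG00000028047.11) at 89215180 to 89226837 and Postn (ENSMUSG00000027750.16) at 54361109 to 54391037. Comp (ENSMUSG00000031849.9) is at 70373558 to 70382066 of chromosome 8, plus strand, Sparc (ENSMUSG00000018593.13) at 55394500 to 55423183 of chromosome 11, minus strand, and Sparcl1 (ENSMUSG00000029309.7) at 104079111 to 104113733 of chromosome 5, minus strand. Thbs1 shares exon bases with the noncoding Gm29233, and Tnc with 8030451A03Rik, both on the opposite strand.

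Other matricellular genes came from a list of 20, of which 17 were measured and 15 tested, Spock1 and Spock3 being too low. In limma 0 passed in either direction, in edgeR 0, and in DESeq2 1 (Ccn3), while 5 had an unadjusted p under 0.05 (4 higher, 1 lower). Over all genes the shares were 4.23% in DESeq2 and 12.6% at that unadjusted p. The groups did not overlap for 6 with LDE225 higher and for 1 with LDE225 lower, beside 16.6% and 15.2% of all genes. The list median was 0.30, with 0.17 without LDE225 2 and 0.59 without LDE225 1. Ccn3, a growth-modulating member of the CCN family of secreted proteins, was at 418, 536 and 529.9 normalised counts with vehicle and at 1103 and 844 with LDE225. Both treated libraries were above every vehicle library (limma log2 fold change 0.97 ± 0.19, SE, adjusted p = 0.146; DESeq2 adjusted p = 0.00316). Ccn1, an integrin-binding protein of the same family, had means of 3678 ± 311 and 5125 ± 549 (limma adjusted p = 0.304). Spon2, a spondin with a thrombospondin-like repeat, had 1348 ± 467 and 2249 ± 366 (adjusted p = 0.326), and Mfge8, which bridges dying cells to phagocytes, 2132 ± 296 and 3006 ± 549 (adjusted p = 0.359).

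Receptors and binding partners of these proteins came from a second list of 20, all measured and 19 tested, Ptprz1 being too low. In limma and edgeR 0 passed, and in DESeq2 1 was higher (Lrp1) and 2 lower (Itgb3 and Itgb8), while 3 had an unadjusted p under 0.05 in limma, all lower. All genes tested had 12.6% at that unadjusted p, and 2.39% higher and 1.84% lower in DESeq2. The groups did not overlap for 4 with LDE225 higher and for 5 with LDE225 lower, beside 16.6% and 15.2% of all genes. The list median was -0.10, and -0.23 without LDE225 2. Itgb8, an integrin subunit whose pairing with the alpha V subunit activates latent TGF-beta, was at 519, 772 and 582 normalised counts with vehicle and at 131 and 276 with LDE225. Both treated values were well below vehicle (limma log2 fold change -1.69 ± 0.34, SE, adjusted p = 0.147; DESeq2 adjusted p = 0.00162). Itgb3, whose pairing with alpha V binds thrombospondins and periostin, was at 985, 1282 and 780.3 with vehicle and at 543 and 479 with LDE225 (limma log2 fold change -0.96 ± 0.23, adjusted p = 0.186; DESeq2 adjusted p = 0.0129). Itga6, chiefly a laminin receptor subunit, had means of 619 ± 129.9 and 333 ± 82.4 (limma adjusted p = 0.215), beside the lower epithelial marker sums given above, whose part was not tested. Lrp1, the endocytic receptor that clears thrombospondins from the cell surface, was at 57124, 69356 and 66452 with vehicle and at 98665 and 115971 with LDE225. Its groups did not overlap (limma log2 fold change 0.74 ± 0.37, adjusted p = 0.475; DESeq2 adjusted p = 0.00265). The partner subunit Itgav, named after its values were seen, was at 4118 ± 269 and 3547 ± 152 (limma log2 fold change -0.21, adjusted p = 0.616). Other beta subunits that pair with alpha V had -0.010 (Itgb1) and 0.49 (Itgb5).

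**Figure D4:**
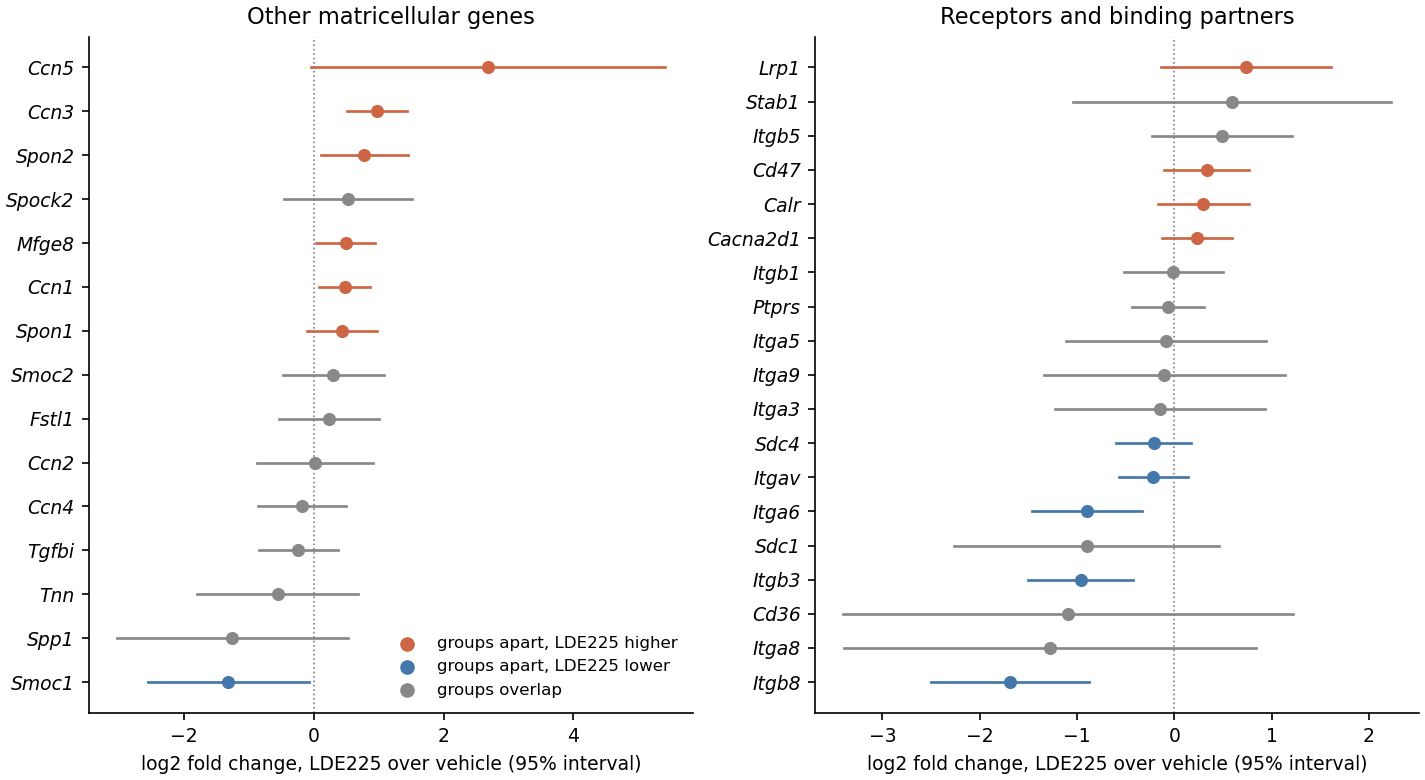
Log2 fold change of LDE225 over vehicle with its 95% interval in limma (horizontal axes) for the 15 other matricellular genes tested (left) and the 19 receptors and binding partners tested (right). Colours mark whether the groups overlap; Ccn3 stands at 0.97 among those with LDE225 higher, and Itgb8 at -1.69 among those with LDE225 lower.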

How the data were processed

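The authors deposited 1 signal value for each gene and library, read counts divided by DESeq2 size factors, on a linear scale and without regard to gene length. STAR 2.7.3, RSEM 1.2.29, DESeq2 1.22.2 and GRCm38 are named without role or parameters, per the submitters' processing notes. Ribosomal RNA was depleted and a directional kit used, per the labels' protocols. All values (100%, within 0.001 reads) were whole multiples of each library's smallest value, which gave the recovered reads; these cover the deposited genes only. Another 3 columns without a header were not used.

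LDE225 (n = 2) was compared with vehicle (n = 3) by limma 3.58.1 (R 4.3.3; mean trend, two-sided) on log2(value + 1), testing the 13183 genes whose mean reached 10, with Benjamini-Hochberg adjustment over all of them and a threshold of 0.05. This scale understates changes of low genes. edgeR 4.0.16 and DESeq2 1.42.0 were run on the recovered reads of the same genes. The code was tested on simulated data. Alternatives were pseudocounts of 0.5 and 5, a mean of at least 50 or no filter, 3 rescalings, 3 variance models, a replicate block and leaving out each library. Lengths are exon unions of GENCODE M21, whose identifiers matched 14755 genes with version. Genes named from the related lists are the 4 of smallest unadjusted p in each, and from marker lists up to 3 of highest mean, unless said otherwise. Members, lists and tests were chosen with earlier results of these data known.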

Additional observations from a re-analysis of the deposited data

How the results depend on the processing

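Thbs4, Tnxb, Thbs3, Thbs2, Thbs1, Comp and Tnc kept the sign of their log2 fold changes under all 18 alternatives run. Thbs4 was called with array weights (1.89, adjusted p = 0.0367), by DESeq2 (1.99) and with the replicate block (2.20, adjusted p = 0.0411), so the count of members called higher became 1 in each. With fewer than 3 pairs the replicate numbers link libraries by number only, and same-numbered libraries had correlations of deviations of 0.13 and -0.017. The sign of Sparc turned with the same total (-0.017) and quantile normalisation (-0.37). With 1 library left out the log2 fold changes ran from -0.028 to 0.22 for Sparc, from -0.13 to 0.51 for Postn, from -0.20 to 0.78 for Sparcl1 and, for the log2 ratio of Thbs4 to Thbs1, from 1.55 to 2.05. The same total moved the median of all genes to -0.13, against 0.0030. Over all genes, 3 were called higher and 1 lower. These counts were 70 and 38 with array weights, 303 and 233 in DESeq2, and 16 and 5 with the replicate block. Lower calls were 2 with the same total, 0 without a mean trend and 0 in edgeR. Leaving out 1 library gave 0 to 6 higher and 0 to 4 lower. DESeq2 moved the other matricellular genes called higher to 1, and the receptor genes to 1 higher and 2 lower. The call of Gli1 was also lost without a mean trend (adjusted p = 0.169) and in edgeR (0.0552). The cause of these differences was not tested. All fits rest on few libraries. For Comp the difference between vehicle 2 and the other libraries exceeded counting error, which was not computed for the other genes.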

Other observations

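Further matricellular genes, named here after their values were seen, varied widely between libraries. Ccn5, a CCN family member known from smooth muscle and fibroblast quiescence, was at 600.2, 57.9 and 1027 normalised counts in vehicle 1, 2 and 3 and at 1453 and 3136 in LDE225 1 and 2. It thus ordered the 5 libraries as Tnxb did, an order shared by 312 genes or 2.37% of those tested (limma log2 fold change 2.69 ± 1.14, SE, adjusted p = 0.402). Spp1, which encodes osteopontin, was at 13432, 43112 and 6900.3 with vehicle and at 9788 and 4526 with LDE225, so vehicle 2 alone held more than the other 4 libraries together (adjusted p = 0.558). Smoc1, a SPARC-family gene, was low throughout, at 38.2, 81.1 and 32.6 with vehicle and at 18.5 and 17.7 with LDE225 (limma log2 fold change -1.32 ± 0.52, adjusted p = 0.369). Both treated libraries were below every vehicle library, as for 15.2% of all genes tested. Ccn2, a common readout of TGF-beta and YAP activity, differed more between the LDE225 libraries (2564 and 6326) than between any vehicle libraries (3313 to 4584).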
